A study of Xenopus laevis with 13 samples.

Results

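Nucleoporins, importins and exportins build the nuclear pore and carry cargo through it. They were compared here between the transcriptomes of single *X. laevis* eggs and single gastrulae. Gene models were chosen by name alone. A model was taken if its name in the table of single libraries started with nup, kpna, kpnb, tnpo, ipo or xpo followed by a digit, xpo5 excepted, or was tpr, ranbp2, seh1l, sec13, rae1, aaas, ndc1 or cse1l. This gave 101 of 54110 gene models, under 47 names. The samples were 5 fertilized, uncleaved eggs taken 60 min after fertilization (stage 1), 5 whole embryos at gastrula stage 10.5, and 3 technical libraries of stage 10.5 that are not separate animals. All came from *in vitro* fertilization of the eggs of a single female injected with human choriogonadotropin, and the labels give no strain, genotype or treatment that differs between groups. The p-values therefore cover the spread within the offspring of that female and not between females. Egg and embryo libraries were made from RNA depleted of rRNA, by different adapter protocols, so stage and library preparation cannot be told apart.

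The nuclear pore is a ring of repeated subunits in the nuclear envelope. Its scaffold holds a Y-shaped complex and an inner ring, transmembrane subunits anchor it, and unstructured proteins rich in phenylalanine-glycine (FG) repeats fill its channel. Filaments face the cytoplasm and a basket faces the nucleus. Importins bind cargo in the cytoplasm and release it where the GTPase Ran is loaded with GTP, and exportins take up cargo together with RanGTP. Eggs of *Xenopus* are known for a large store of pore parts, held partly as pores in stacked cytoplasmic membranes (annulate lamellae), which serve the many nuclei formed during cleavage. In egg extracts of *Xenopus*, importin alpha and the Ran carrier Ntf2 are known to affect the size of the nucleus.

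FPKM, the number of fragments on a transcript divided by its length in kilobases and by library size, is a level per length and was read as deposited. Read numbers were worked out from the smallest increments of FPKM in each library. They came to between 1505446 and 2922103 reads on gene models in eggs, 1366287 to 3816593 in embryos and 725779 to 1175083 in technical libraries. The stage labels were checked on marker genes. Of 45 tested gene models of early zygotic genes, 42 were higher in embryos and 0 lower, and of 19 tested for oocyte genes 9 were lower and 3 higher. Markers of ovarian follicle cells summed to 5.87 to 8.37 FPKM in eggs and 4.59 to 7.83 FPKM in embryos, with 11 of 13 gene models at 0 in every egg and 8 of 13 at 0 in every embryo. Blood markers summed to 0 to 3.41 FPKM in eggs and 0 to 3.66 FPKM in embryos, with 17 of 19 at 0 in every egg.

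*X. laevis* is allotetraploid, so that most genes have a pair of homeologues. Of the 47 names, 25 were held by exactly 2 gene models, 13 by 1 and 9 by more than 2. Gene models of a name are numbered here as copies, by scaffold and position, which says nothing of the subgenome. The deposited gene model file gave the same gene to 90 of the 101. It left 4 unnamed and gave another gene to 7, namely 2 named xpo1 (rpl10 and hnrnpa1), 3 named kpna2 (gak and ybx1) and 2 named ipo5 (ptpn4). Values of these 11 are given as such and not as those of a pore or carrier gene. Exon bases were shared with a model on the opposite strand by 36 members and on the same strand by 3. The libraries were strand-specific by protocol, but whether the abundance estimate used the strand is not given in the sources used here, so reads of such overlapping models may not be separable.

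More pore and carrier transcripts were lower in gastrulae than were higher. Among the 92 members with a mean of at least 1 FPKM, 34 were lower and 20 higher in embryos by limma (adjusted p under 0.05). Among all 19373 gene models tested, 25.2% were lower and 31.6% higher, 56.8% in either direction. With a mean of at least 5 FPKM the background was 29.9% lower and 33.3% higher (63.2% either), and over gene models with a name it was 26.4% lower and 31.4% higher (57.7% either). The median log2 difference (embryo minus egg, on log2(FPKM + 1)) was -0.31 for the members and 0.12 for all gene models tested. The pseudocount of 1 understates the change of gene models near 1 FPKM. Values did not overlap between stages for 28 members with eggs above and 18 with embryos above, where all gene models gave 18.3% and 23.5%. Counting only members with the same gene in both files, 32 of 82 were lower and 14 higher, and these divided into 16 lower and 7 higher of 37 nucleoporins and 16 lower and 7 higher of 45 carriers. In bulk RNA of whole embryos, fewer cells with a transcript and less of it per cell cannot be told apart.

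The rises depended on the libraries and the scale used. With the 3 technical libraries in place of the single embryos, 39 members were lower and 10 higher. These included 31 of the 34 falls and 8 of the 20 rises. All gene models gave 22.4% lower and 27.9% higher in that fit. The technical libraries entered it as replicates, though they are not separate animals. Its p-values thus do not measure the spread between embryos. With each library rescaled to the same FPKM sum (TPM), 49 were lower and 3 higher, and all gene models gave 39.8% lower and 6.37% higher. That scaling moved the median of all gene models by -1.11. The 5 gene models with the highest FPKM held 23.6% to 87.7% of the FPKM sum in eggs and 60.1% to 71.9% in embryos. Measured from the median of all gene models, the 34 falls stayed below it and the 20 rises above it under both scales. These members were called in the same fit, and rescaling shifts all models of a library nearly alike. Their place beside the median was thus largely fixed in advance and is no separate support. The median of the members minus that of all gene models was -0.43 as deposited and -0.35 as TPM.

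**Figure D1:**
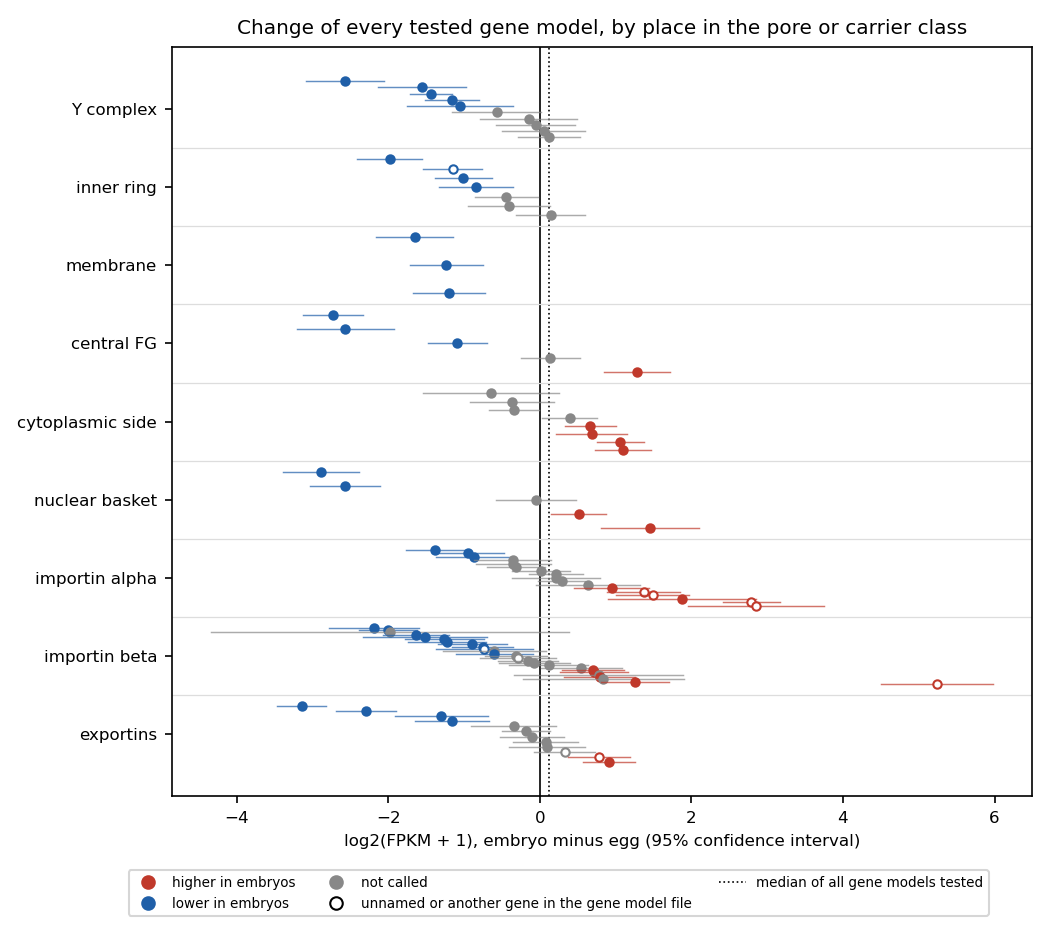
Difference of every tested gene model between embryos and eggs on log2(FPKM + 1), with its 95% confidence interval, by place in the pore or carrier class (5 eggs, 5 embryos). Blue and red mark an adjusted p under 0.05 and open circles the models that are unnamed or given another gene in the gene model file. All 3 membrane models lie below 0, 4 of 8 models of the cytoplasmic side lie above 0 in red and none in blue, and the open circle farthest right is ipo7 copy 3 at 5.24.

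The Y complex is a scaffold of the pore and a part recruited early to chromatin when pores are rebuilt. It had 5 of 10 tested models lower in single embryos and 0 higher (median -0.81), beside 25.2% lower and 31.6% higher among all gene models. nup43, a peripheral subunit at the short arm of the Y, was the most abundant in eggs. Its FPKM was 88.3, 101, 88.6, 92.9 and 102 in eggs 1 to 5 and 32.1, 31.8, 33.7, 36.5 and 38.1 in embryos 1 to 5. Every egg was above every embryo, and the spread within each stage was small beside the gap (log2 difference -1.43 ± 0.12 (SE), adjusted p = 2.94e-06 in limma). This model lies on scaffold 000222959 from 413285 to 437962 and has 8 exons.

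seh1l, a subunit shared between the Y complex and a regulator of nutrient signalling, showed the largest fall of the class. seh1l copy 1 (scaffold 000023301, 163984 to 182163, 9 exons) gave 38.2, 34.1, 40.2, 43.2 and 47.0 FPKM in the eggs against 5.22, 10.99, 4.23, 4.32 and 6.84 FPKM in the embryos. All eggs exceeded all embryos (-2.57 ± 0.23, limma adjusted p = 3.99e-06). seh1l copy 2 was at 8.60 ± 2.71 FPKM (SD, n = 5) in eggs and 8.78 ± 2.104 (n = 5) in embryos, and did not pass the test (adjusted p = 0.868). Copy 1 was above copy 2 in every egg, whereas in embryos the ranges of both copies overlapped. Both copies carry the same gene name in both files.

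The other subunits of the Y differed among themselves. nup160 at 21.3 ± 2.75 and 9.02 ± 1.29 FPKM and nup85 at 27.5 ± 6.65 and 8.95 ± 3.40 FPKM (means of 5 eggs and 5 embryos, SD) were lower in embryos (-1.16 and -1.55, limma adjusted p = 1.01e-04 and 4.21e-04), with no overlap. nup107, which joins the stem of the same Y, was at 21.2 ± 4.99 FPKM in eggs and 22.8 ± 3.19 FPKM in embryos (0.12, 95% interval -0.29 to 0.53, adjusted p = 0.609). nup37 was at 48.8 ± 6.33 and 49.3 ± 18.7 FPKM and did not pass either with the single embryos. In the technical libraries nup37 was at 94.5 to 115 FPKM, above all single embryos. With those libraries in place of the embryos it was called higher than in eggs (limma adjusted p = 8.86e-04). That p-value does not measure the spread between embryos. Summed over copies, the ratio of embryo to egg means ran from 0.307 for seh1l to 1.07 for nup107.

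sec13, which is shared with the coat of vesicles leaving the endoplasmic reticulum, has 3 models. sec13 copy 1 and copy 2 lie on opposite strands of the same stretch of scaffold 000007281, with 983 shared exon bases, and embryo 2 held the lowest copy 1 value of the embryos (4.70 FPKM) and the highest copy 2 value (13.8 FPKM). sec13 copy 1 was lower in embryos (18.9 ± 5.28 against 9.17 ± 4.73 FPKM, adjusted p = 0.0143), but its values overlapped between stages. A further subunit, nup133, was not among the members because the expression table names its 2 models ncaph. Their levels in eggs and embryos were 6.84 ± 1.45 and 11.5 ± 1.27 FPKM for the first and 4.84 ± 1.43 and 13.5 ± 2.57 FPKM for the second, under a name that the 2 files do not share.

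No member model of the inner ring or membrane class was higher in embryos. In the inner ring, which lines the channel and anchors the FG proteins, 3 of 6 tested models with the same gene in both files were lower and 0 higher (median -0.64). Among all gene models 25.2% were lower and 31.6% higher. nup93, the linker that holds the channel FG proteins in place, fell most. Its FPKM was 31.3, 24.9, 22.2, 18.9 and 26.8 in the eggs and 5.70, 3.57, 6.72, 5.67 and 6.16 in the embryos, without overlap (-1.98 ± 0.20, limma adjusted p = 8.02e-06). It lies on scaffold 000041523 from 9145441 to 9184824 with 22 exons. nup155 copy 1 went from 35.3 ± 4.98 to 17.2 ± 3.27 FPKM (-1.01, adjusted p = 4.27e-04) and nup188, a large ring subunit, from 20.5 ± 5.78 to 10.8 ± 2.51 FPKM (-0.84, adjusted p = 0.00694).

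The highest level under an inner ring name belonged to nup155 copy 2, which is only 277 bases long, overlaps models on the opposite strand and is unnamed in the gene model file. Its FPKM ranged from 995 to 1808 in eggs and from 502 to 725 in embryos (-1.15, adjusted p = 2.10e-04). It is far above nup155 copy 1 in every library and is not read here as nup155. nup35, which bends membranes at the pore, was the most abundant ring gene that both files name. nup35 copy 2 had 170, 173, 279, 134 and 170 FPKM in the eggs and 235, 185, 246, 190 and 151 FPKM in the embryos, with overlap and no call (0.14, 95% interval -0.31 to 0.60, adjusted p = 0.574). In the technical libraries it was lower, at 72.4 to 97.9 FPKM, below all single embryos. nup205 copy 2 did not pass (5.35 ± 1.38 against 3.83 ± 1.11 FPKM).

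All 3 member models of transmembrane subunits, 2 of them copies of ndc1, were lower in embryos, without overlap. Among all gene models 25.2% were lower, and 18.3% had all eggs above all embryos. ndc1, which is needed to insert pores into the envelope, was highest as copy 2 (scaffold 000069443, 5910855 to 5932633), with 19.9, 25.4, 39.7, 20.7 and 32.2 FPKM in the eggs and 9.84, 13.01, 13.04, 8.42 and 10.2 FPKM in the embryos (-1.23 ± 0.22, limma adjusted p = 5.62e-04). ndc1 copy 1 had 16.5, 8.58, 14.1, 9.60 and 13.1 FPKM against 3.32, 4.02, 4.0005, 1.88 and 3.02 FPKM (-1.65 ± 0.23, adjusted p = 1.07e-04). The difference between the changes of both copies did not pass the test (limma adjusted p = 0.219). nup210 (gp210), a large glycoprotein whose domain lies between the membranes, went from 9.23 ± 1.52 to 3.54 ± 1.19 FPKM (-1.20, adjusted p = 6.48e-04). Outside the member list, tmem33, counted below among other pore and assembly genes, was higher in both of its models. They were at 32.3 ± 6.90 and 51.8 ± 10.5 FPKM (0.67, limma adjusted p = 0.0105) and at 74.3 ± 30.6 and 141 ± 41.4 FPKM (0.94, limma adjusted p = 0.0112).

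The channel FG proteins went in both directions. nup98, an FG protein made with Nup96 as a single precursor that also binds genes inside the nucleus, fell steeply. nup98 copy 2 (scaffold 000272489, 253091 to 270817) had 31.9, 35.1, 50.6, 48.9 and 48.2 FPKM in the eggs and 5.56, 5.91, 5.52, 6.47 and 4.45 FPKM in the embryos (-2.72 ± 0.18, limma adjusted p = 3.21e-07). nup98 copy 1 had 11.96, 9.21, 25.3, 11.1 and 8.81 FPKM against 1.51, 0.647, 1.48, 1.93 and 0.887 FPKM (-2.57 ± 0.29, adjusted p = 2.27e-05). No embryo reached the lowest egg in either copy. Summed over both, nup98 was at 56.2 ± 13.2 FPKM in eggs and 6.87 ± 1.10 FPKM in embryos, a ratio of 0.122.

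nup62, the central FG subunit of the channel, had the highest level of the class in eggs but not in embryos, with 90.0, 84.2, 64.2, 73.1 and 67.4 FPKM in the eggs and 36.1, 33.7, 48.6, 31.7 and 27.4 FPKM in the embryos (-1.09 ± 0.18, limma adjusted p = 2.94e-04). nup54 is its partner in the channel. nup54 copy 2 (scaffold 000058878, 5901948 to 5928317, 13 exons) rose from 21.2, 19.3, 16.6, 17.7 and 16.0 FPKM in the eggs to 41.4, 44.1, 32.6, 45.2 and 71.1 FPKM in the embryos (1.28 ± 0.20, adjusted p = 2.25e-04), and was at 52.2 to 67.5 FPKM in the technical libraries. As TPM its difference was -0.03, above the median of all gene models on that scale, which is no separate support. nup54 copy 1 was at 34.9 ± 7.36 and 38.1 ± 4.54 FPKM with no call.

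**Figure D2:**
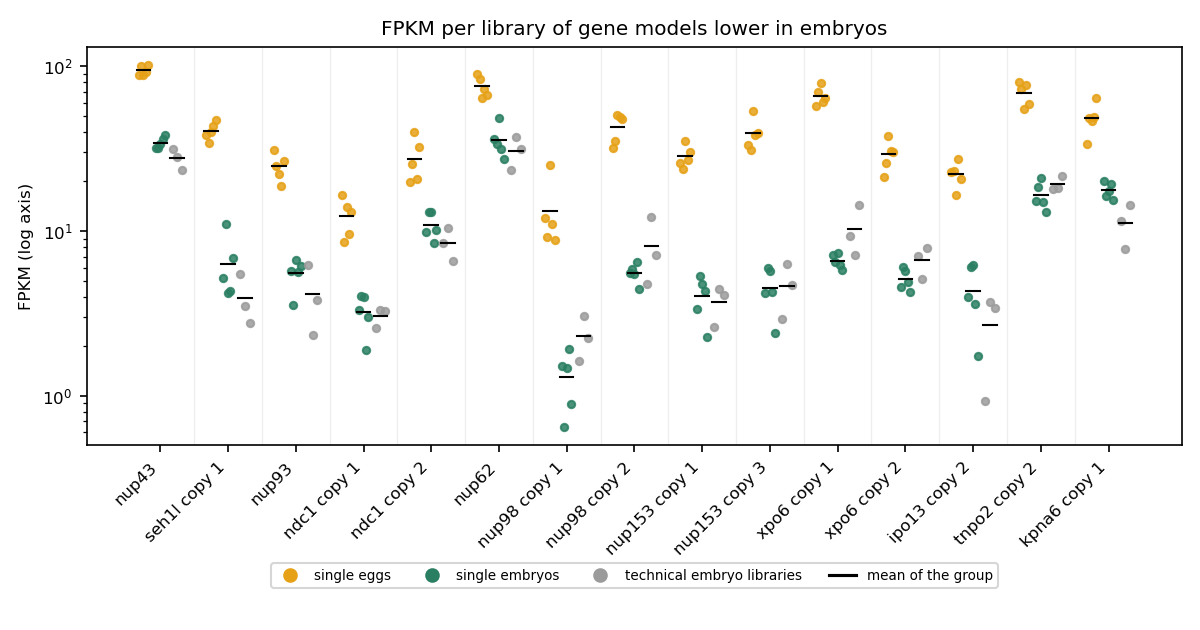
FPKM per library, on a log axis, of 15 gene models that were lower in embryos, for 5 single eggs, 5 single embryos and 3 technical embryo libraries. Points are libraries and bars are group means. In every model shown the lowest egg lies above the highest single embryo, as for xpo6 copy 1 with 57.4 FPKM against 7.38 FPKM.

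The cytoplasmic side was the class with no lower model. Its proteins form the filaments and the platform where exported mRNA is remodelled. Of 8 tested models 4 were higher and 0 lower in embryos (median 0.53), beside 31.6% higher and 25.2% lower among all gene models. ranbp2 (Nup358), a very large protein of the filaments that binds Ran and acts as a SUMO ligase, rose in both copies. ranbp2 copy 2 (scaffold 000078302, 2690623 to 2742793, 28 exons) had 9.62, 6.17, 8.96, 8.78 and 8.64 FPKM in the eggs and 22.0, 16.0, 16.7, 20.04 and 21.1 FPKM in the embryos (1.10 ± 0.17, limma adjusted p = 2.13e-04). ranbp2 copy 1 went from 6.82 ± 0.790 to 11.4 ± 1.08 FPKM (0.67 ± 0.16, adjusted p = 0.00334). Every embryo was above every egg for both.

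These rises were smaller or absent against the technical libraries. There, ranbp2 copy 2 was at 10.2 to 13.9 FPKM and copy 1 at 7.03 to 7.65 FPKM, both below all 5 single embryos. Their differences from eggs were 0.45 and 0.09 (limma adjusted p = 0.109 and 0.726). As in every fit with the technical libraries, these p-values do not measure the spread between embryos. rae1, which docks mRNA export complexes and also acts on the spindle, was highest as copy 2. It had 69.3, 52.6, 84.3, 52.5 and 66.9 FPKM in the eggs and 83.3, 71.5, 98.8, 89.3 and 82.5 FPKM in the embryos, with overlap and no call (0.40, adjusted p = 0.0610). rae1 copy 1 rose from 13.9 ± 3.78 to 22.5 ± 4.14 FPKM (0.68, adjusted p = 0.0178). Against the technical libraries its difference was 0.33 and did not pass (limma adjusted p = 0.351).

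nup88, which pairs with Nup214 on the cytoplasmic face, differed between its copies. nup88 copy 2 rose from 24.4, 30.2, 20.04, 25.3 and 27.0 FPKM in the eggs to 52.6, 53.1, 51.2, 53.6 and 57.5 FPKM in the embryos (1.06 ± 0.14, limma adjusted p = 7.10e-05). nup88 copy 1 was at 42.8 ± 5.08 and 33.6 ± 4.83 FPKM and did not pass (-0.34, adjusted p = 0.0727). The more abundant copy was thus copy 1 in every egg and copy 2 in every embryo. nup214 copy 2 was near the limit of the table, at 0.178 to 4.51 FPKM in eggs, and aaas, whose human counterpart is mutated in triple A syndrome, was at 38.2 ± 8.93 and 30.0 ± 9.86 FPKM with no call.

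In the nuclear basket, nup153 fell in both of its tested models. Its copy 3 had the largest fall of any tested pore model on log2(FPKM + 1). As a ratio of mean FPKM, nup98 copy 1 fell further, from 13.3 in eggs to 1.29 in embryos. Nup153 anchors the basket and is an early docking site for importin beta. nup153 copy 3 (scaffold 000121479, 558944 to 609234, 23 exons) had 33.3, 31.0, 53.7, 38.4 and 39.3 FPKM in the eggs and 4.19, 5.98, 5.73, 4.26 and 2.41 FPKM in the embryos (-2.88 ± 0.23, limma adjusted p = 1.47e-06). nup153 copy 1 had 25.8, 23.7, 35.4, 27.0 and 30.1 FPKM against 3.38, 5.35, 4.78, 4.34 and 2.28 FPKM (-2.57 ± 0.21, adjusted p = 1.73e-06). Both were as low in the technical libraries, at 2.93 to 6.35 and 2.61 to 4.46 FPKM. The remaining 3 nup153 models are short, of 2 to 4 exons, held at most 5 reads in any egg or 2 in any embryo, and were not tested.

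No tested tpr or nup50 model was called lower. tpr, which forms the filaments of the basket, went from 10.6 ± 2.21 to 15.4 ± 1.26 FPKM in copy 1 (0.51 ± 0.17, limma adjusted p = 0.0197), with a slight overlap through egg 3. nup50, a mobile cofactor of importin alpha release, was highest as copy 1, with 22.1, 43.5, 57.6, 37.1 and 33.6 FPKM in the eggs and 33.4, 44.6, 38.4, 37.5 and 27.1 FPKM in the embryos (-0.05, 95% interval -0.57 to 0.47). nup50 copy 2 rose from 2.39, 4.44, 1.35, 3.86 and 5.16 FPKM to 7.81, 12.2, 15.2, 11.3 and 7.77 FPKM (1.46 ± 0.29, adjusted p = 0.00135). It rests on few reads, with a median of 22.5 per library and a lowest value of 4. With the technical libraries in place of the embryos, nup50 copy 2 gave 0.65 and did not pass (limma adjusted p = 0.198).

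**Figure D3:**
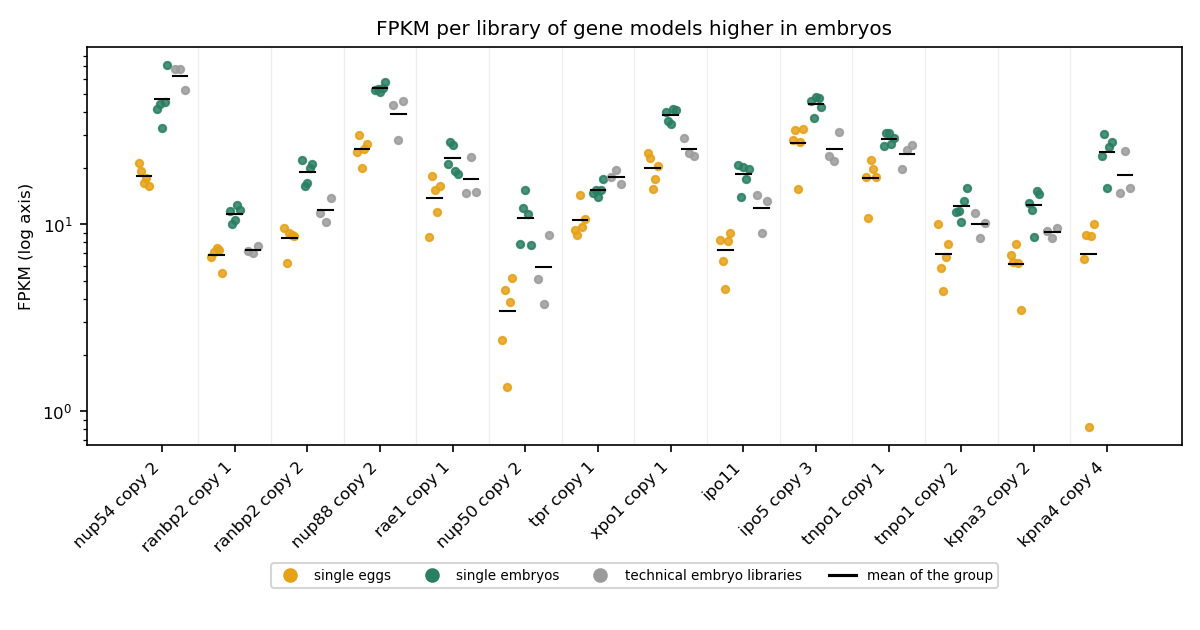
FPKM per library, on a log axis, of 14 gene models that were higher in embryos, for 5 single eggs, 5 single embryos and 3 technical embryo libraries. Points are libraries and bars are group means. The technical libraries lie below all single embryos for both ranbp2 copies, nup88 copy 2 and xpo1 copy 1, whereas for nup54 copy 2 they reach 52.2 to 67.5 FPKM.

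Importin alpha genes encode the adaptors that bind the classical nuclear localization signal. Among them, kpna2 and kpna7 held the highest summed transcript levels of all carriers in both stages, whereas kpna1 and kpna3 were low. By names that both files share, 2 of 13 tested models were higher and 3 lower (15.4% and 23.1%, beside 31.6% and 25.2% of all gene models). kpna2 was at the top with 2 models. kpna2 copy 2 (scaffold 000163806, 4822591 to 4827155, 10 exons) had 448, 347, 327, 389 and 393 FPKM in the eggs and 398, 409, 520, 350 and 282 FPKM in the embryos, and its groups overlapped throughout (0.02, 95% interval -0.36 to 0.40, limma adjusted p = 0.927). kpna2 copy 1 fell from 450, 344, 286, 320 and 287 FPKM to 190, 199, 283, 164 and 115 FPKM (-0.86 ± 0.23, adjusted p = 0.00716). The lowest egg of copy 1, at 286 FPKM, was only just above the highest embryo, at 283 FPKM. A model of 801 bases downstream of copy 1 on the same scaffold, unnamed in the expression table and given as kpna2 in the gene model file, was at 438 ± 26.6 and 167 ± 52.4 FPKM.

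The shares of the leading genes in the importin alpha pool overlapped between single eggs and single embryos. kpna2 held 62.1% to 71.7% of the summed importin alpha FPKM in eggs and 50.2% to 75.7% in embryos. kpna7, an importin alpha of eggs and early embryos in mammals, held 16.9% to 21.9% in eggs and 11.6% to 29.7% in embryos. In the technical libraries kpna7 held 23.9% to 29.0%, above all eggs, and kpna2 58.6% to 64.3%, which overlaps the eggs. kpna7 copy 1 was at 139 ± 21.9 and 112 ± 25.6 FPKM and copy 2 at 60.2 ± 10.5 and 48.4 ± 18.1 FPKM, with no call in either. Embryo 5 had both the lowest kpna2 share and the highest kpna7 share of the single libraries. The summed pool was at 914 to 1253 FPKM in eggs and 792 to 1062 FPKM in embryos.

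Of the 4 remaining importin alphas, kpna3 and kpna4 held a larger share in single embryos than in eggs, whereas kpna6 and kpna1 did not. kpna3 held 1.15% to 1.61% in eggs and 1.87% to 3.496% in embryos, and kpna4 3.84% to 5.09% and 5.55% to 8.37%, without overlap between single eggs and single embryos in either. In the technical libraries kpna4 held 5.01% to 5.75%, which overlaps the eggs, and kpna3 2.01% to 2.55%, which does not. The share of kpna6 was 4.995% to 8.84% in eggs and 4.86% to 7.75% in embryos, with overlap. That of kpna1 was 0.336% to 0.699% and 0.350% to 0.548%, with overlap as well. The technical libraries held 2.90% to 4.30% for kpna6, below all eggs, and 0.0974% to 0.711% for kpna1. kpna3 copy 2 rose from 6.12 ± 1.62 to 12.6 ± 2.60 FPKM (0.95, limma adjusted p = 0.00384). Against the technical libraries its difference was 0.54 and did not pass (adjusted p = 0.116). kpna4 has a pair of loci, each with models on both strands that share 3012 and 2365 exon bases. At the first, kpna4 copy 2 was lower in embryos (14.3 ± 1.43 against 7.21 ± 2.36 FPKM) and at the second copy 4 was higher (6.98 ± 3.67 against 24.5 ± 5.56 FPKM), while their opposite-strand models did not pass. Against the technical libraries copy 2 gave -0.20 and copy 4 gave 1.47, and neither passed (limma adjusted p = 0.431 and 0.0579). The sum of the 4 models was at 48.5 ± 5.27 FPKM in eggs and 64.0 ± 3.62 FPKM in embryos.

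kpna6 showed the largest fall of the class. kpna6 copy 1 (scaffold 000166674, 3014961 to 3027139, 14 exons) had 33.8, 48.4, 46.3, 49.3 and 64.0 FPKM in the eggs and 20.03, 16.2, 17.4, 19.2 and 15.5 FPKM in the embryos (-1.38 ± 0.18, limma adjusted p = 5.55e-05). kpna6 copy 2 was at 31.6 ± 2.94 and 39.0 ± 5.06 FPKM and did not pass (adjusted p = 0.106). kpna1 copy 2 was low in both stages, at 5.38 ± 1.61 and 3.95 ± 0.830 FPKM. The largest rises under importin alpha names were those of kpna2 copies 4 and 5 (2.79 and 2.85), at 40.4 ± 9.09 to 283 ± 38.8 and 30.6 ± 16.2 to 197 ± 38.8 FPKM, which abut on scaffold 000122517 and which the gene model file gives to ybx1, a cold shock protein that binds mRNA. They say nothing of kpna2.

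**Figure D4:**
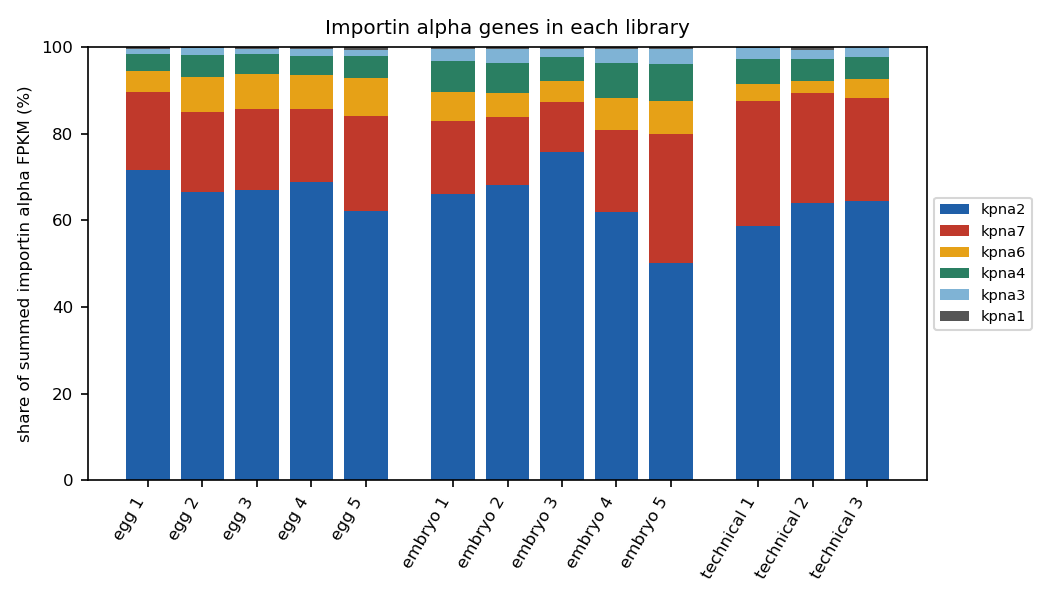
Share of each importin alpha gene in the summed importin alpha FPKM of a library, in percent, for 5 eggs, 5 embryos and 3 technical embryo libraries, over models with the same gene in both files. kpna2 holds 50.2% to 75.7% in every single library, and the band of kpna4 is wider in the single embryos (5.55% to 8.37%) than in the eggs (3.84% to 5.09%), with the technical libraries at 5.01% to 5.75%.

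The importin beta family binds cargo or importin alpha and passes through the FG channel. Of 22 tested models with the same gene in both files, 9 were lower and 4 higher in embryos (40.9% and 18.2%, beside 25.2% and 31.6% of all gene models). tnpo2, a transportin for RNA-binding proteins with a PY-type signal, had the highest summed level of the family in eggs. In embryos ipo5 (47.5 FPKM) and ipo7 (46.4 FPKM) were above it, and tnpo1 (41.3 FPKM) was level with it (41.1 FPKM). The kpnb1 sum was also 41.3 FPKM, but it adds 5 models of which 4 overlap each other. kpnb1 copy 1 alone was at 14.5 FPKM. tnpo2 copy 2 (scaffold 000196085, 560528 to 604799, 25 exons) had 80.6, 73.1, 54.8, 77.0 and 59.4 FPKM in the eggs and 15.1, 18.4, 21.0, 15.0 and 13.1 FPKM in the embryos (-1.998 ± 0.18, limma adjusted p = 3.04e-06). tnpo2 copy 1 fell less, from 37.4 ± 8.57 to 24.5 ± 6.995 FPKM with overlap (-0.60, adjusted p = 0.0433). That call was lost when single libraries were left out.

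tnpo1, its close relative with the same kind of cargo, went the other way in both copies. tnpo1 copy 1 had 17.9, 10.8, 22.1, 19.8 and 17.99 FPKM in the eggs and 26.3, 30.7, 30.9, 26.8 and 29.1 FPKM in the embryos (0.70 ± 0.19, limma adjusted p = 0.00776). tnpo1 copy 2 rose from 6.98 ± 2.12 to 12.5 ± 2.03 FPKM (0.79 ± 0.21, adjusted p = 0.00774). Summed over copies, tnpo2 was at 106 ± 17.9 FPKM and tnpo1 at 24.7 ± 4.55 FPKM in eggs, whereas in embryos they stood at 41.1 ± 9.92 and 41.3 ± 2.53 FPKM. The ratio of embryo to egg was 0.386 for tnpo2 and 1.67 for tnpo1. As TPM the tnpo1 differences were -0.57 and -0.41, above the median of all gene models on that scale, which is no separate support. With the technical libraries in place of the embryos they were 0.43 and 0.50 and did not pass (limma adjusted p = 0.183 and 0.153).

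ipo13, a carrier that works in both directions, fell most in the family. ipo13 copy 2 (scaffold 000325141, 298006 to 337404, 20 exons) had 22.8, 23.3, 16.5, 27.2 and 20.7 FPKM in the eggs and 3.97, 6.08, 6.19, 3.59 and 1.75 FPKM in the embryos (-2.19 ± 0.27, limma adjusted p = 3.94e-05). ipo13 copy 1 was lower as well, at 3.73 ± 1.22 and 0.991 ± 0.257 FPKM. ipo9, an importer of histones and actin, was lower in both copies, from 31.9 ± 9.55 to 12.4 ± 2.61 and from 14.3 ± 2.44 to 3.96 ± 1.03 FPKM. ipo4, which carries histones H3 and H4, went from 27.96 ± 2.37 to 16.5 ± 3.73 FPKM (-0.75, adjusted p = 0.00439) and ipo7 copy 2, an importer of ribosomal proteins and histone H1, from 48.3 ± 11.2 to 25.2 ± 4.43 FPKM (-0.89, adjusted p = 0.00339). ipo5 copy 3 rose from 27.2 ± 6.95 to 44.1 ± 4.49 FPKM (0.71, adjusted p = 0.0110), and ipo11 from 7.25 ± 1.81 to 18.5 ± 2.78 FPKM (1.26, adjusted p = 2.87e-04). With the technical libraries in place of the embryos, ipo5 copy 3 gave -0.07 and ipo11 0.69, and neither passed (limma adjusted p = 0.853 and 0.0603).

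kpnb1, importin beta itself, is spread over 5 models. kpnb1 copy 1 (24 exons) was at 17.9 ± 1.92 and 14.5 ± 3.39 FPKM with no call (-0.31, adjusted p = 0.172). The other 4 models overlap each other on scaffold 000075417 on both strands, so that their separate values are uncertain. Of them only copy 5, of 727 bases, passed (30.2 ± 17.2 against 9.38 ± 3.94 FPKM, adjusted p = 0.00483). ipo7 copy 3, of 761 bases and unnamed in the gene model file, lies opposite to another model along its whole length. It was listed at 0 in every egg and at 14.5 to 70.5 FPKM in the embryos (fitted difference 5.24, which depends on the pseudocount) and is not read as ipo7.

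On log2(FPKM + 1) the largest fall of all tested members was that of an exportin, xpo6 copy 1. The pseudocount of 1 understates the fall of nup98 copy 1, at 1.29 FPKM in embryos. Summed over copies, the ratio of embryo to egg means was 0.122 for nup98, 0.123 for xpo6 and 0.126 for nup153. xpo6 carries actin with profilin out of the nucleus, and its protein is known to be missing from the actin-rich nuclei of *Xenopus* oocytes. xpo6 copy 1 (scaffold 000000939, 3303678 to 3337278, 24 exons) had 57.4, 70.2, 78.9, 60.9 and 64.5 FPKM in the eggs and 7.17, 6.47, 7.38, 6.22 and 5.83 FPKM in the embryos (-3.14 ± 0.15, limma adjusted p = 1.58e-08). xpo6 copy 2 had 21.4, 26.0, 37.8, 30.7 and 30.0 FPKM against 4.56, 6.02, 5.70, 4.94 and 4.27 FPKM (-2.29 ± 0.18, adjusted p = 1.44e-06). The lowest egg was above the highest embryo in both. Summed, xpo6 was the most abundant exportin of eggs at 95.6 ± 13.7 FPKM and was at 11.7 ± 1.16 FPKM in embryos.

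xpo1 (Crm1), the general exporter of proteins with a leucine-rich signal, was the exportin with the highest summed level in gastrulae (56.2 ± 3.01 FPKM). xpo1 copy 1 (scaffold 000012020, 5482362 to 5541435, 25 exons) rose from 24.0, 22.6, 15.5, 17.5 and 20.6 FPKM in the eggs to 39.8, 35.6, 34.5, 41.5 and 40.8 FPKM in the embryos (0.92 ± 0.16, limma adjusted p = 4.23e-04). xpo1 copy 2 was at 20.3 ± 2.58 and 17.7 ± 1.21 FPKM with no call (-0.18, 95% interval -0.49 to 0.14). In the technical libraries copy 1 was at 23.1 to 29.0 FPKM, and its difference from eggs did not pass (0.34, adjusted p = 0.192). xpo1 copy 4, at 45.5 ± 11.97 and 77.9 ± 10.99 FPKM, had the highest level under an exportin name in embryos and is given as hnrnpa1 in the gene model file.

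cse1l (CAS), which returns importin alpha to the cytoplasm, did not differ beyond its spread between single eggs and single embryos. Its copies were at 13.1 ± 3.98 and 13.5 ± 1.42 FPKM (95% interval of the difference -0.41 to 0.60) and at 9.96 ± 2.25 and 10.5 ± 1.88 FPKM (-0.36 to 0.51). xpo4 gave no call in either copy with the single embryos. With the technical libraries in place of the embryos, cse1l copy 2 and xpo4 copy 1 were lower (-0.70 and -0.81, limma adjusted p = 0.0362 and 0.00981). The other copy of each did not pass in that fit (limma adjusted p = 0.335 and 0.666). xpo7, a carrier of both imported and exported cargo, was lower in both, from 10.05 ± 1.21 to 4.08 ± 1.31 and from 16.9 ± 7.77 to 5.90 ± 1.41 FPKM, without overlap. Outside the member list, xpo5, the exporter of precursors of microRNA, was at 42.6 ± 4.59 and 9.67 ± 1.38 FPKM (-2.04 ± 0.16, limma adjusted p = 1.10e-06).

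Copies of a name were compared within each library, to ask whether both changed by the same amount. Of 4360 names with exactly 2 models above 1 FPKM in the whole table, 35.8% differed in their change (limma, adjusted p under 0.05). Among the members there were 24 such pairs, of which ptpn4 is 1 by the gene model file, and 9 differed. That is near the share of all such names. Both copies were lower in 8 pairs, both higher in 2 and neither called in 5, and in 9 pairs only 1 copy was called. In no pair was 1 copy called higher and the other lower. These classes of calls were not counted over all 4360 names, so they describe the members and are not read as particular to them.

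The largest inequality of change among these pairs was that of nup50, where the change of copy 1 minus that of copy 2 was -1.51 ± 0.37 (limma adjusted p = 0.00795), followed by nup88 at -1.40 ± 0.20 (adjusted p = 3.16e-04) and tnpo2 at 1.40 ± 0.20 (adjusted p = 3.61e-04). nup54 (-1.14 ± 0.24) and xpo1 (1.10 ± 0.20) had the form of nup50 and nup88, a rising copy beside a copy with no call. In tnpo2, ipo13 (0.97 ± 0.24) and xpo6 (-0.85 ± 0.19) both copies fell and the copy that was higher in eggs fell more on this scale. nup35 and ipo7 were the other unequal pairs. In nup98, nup153 and ndc1 both copies fell and the difference between them did not pass the test (0.16 ± 0.28, 0.31 ± 0.17 and -0.41 ± 0.25).

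**Figure D5:**
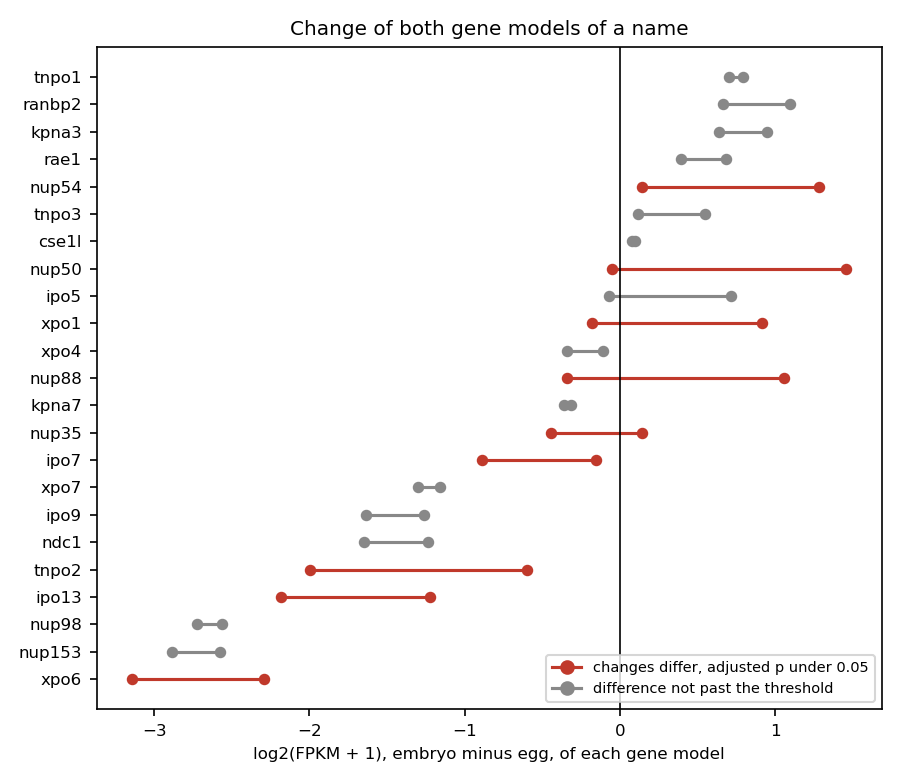
Difference between embryos and eggs on log2(FPKM + 1) of both gene models of a name, joined by a line, for 23 names with exactly 2 tested models of the same gene (5 eggs, 5 embryos). Red lines mark names whose copies changed by different amounts (adjusted p under 0.05). The dots of xpo6 lie at -3.14 and -2.29, and those of nup50 on either side of 0 at -0.05 and 1.46, the former with no call.

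Genes that work with pores and carriers were taken from 4 lists chosen by function. All 4 counts are read against the 31.6% higher and 25.2% lower of all gene models. In the Ran cycle, 8 of 22 tested models were higher and 4 lower (36.4% and 18.2%). ranbp3, a cofactor of Crm1, had a model at 22.1 ± 5.98 FPKM in eggs and 92.9 ± 9.35 FPKM in embryos (2.06, limma adjusted p = 5.68e-06), and rcc1, the nucleotide exchange factor that loads Ran on chromatin, a model at 19.7 ± 6.06 and 75.9 ± 5.22 FPKM (1.94, adjusted p = 1.12e-05). The most abundant rcc1 model was not called, at 155 ± 33.5 and 195 ± 27.5 FPKM (0.34, adjusted p = 0.110), nor was a further one at 9.28 ± 5.52 and 14.5 ± 3.02 FPKM (adjusted p = 0.0676). nutf2 (Ntf2), which returns RanGDP to the nucleus, was lower in 2 of its models, at 37.3 ± 12.3 and 21.1 ± 6.0004 FPKM (-0.78, adjusted p = 0.0213) and at 19.5 ± 1.87 and 13.1 ± 3.62 FPKM (-0.57, adjusted p = 0.0261), while its most abundant model varied widely, at 590 ± 505 and 256 ± 168 FPKM, and was not called (adjusted p = 0.892). The largest fall was in ranbp9 (-1.20), and the largest rise in a ran model that was at 0 in every egg and in 2 of 5 embryos. That short model lies within the span of other ran models. Another ran model was higher, at 46.3 ± 19.0 and 85.2 ± 29.5 FPKM (limma adjusted p = 0.0234). The ran model with the highest level in eggs was not called, at 97.2 ± 12.7 and 83.9 ± 14.7 FPKM (adjusted p = 0.262). Nor was the remaining one, at 39.1 ± 25.2 and 17.4 ± 3.62 FPKM (adjusted p = 0.0895).

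Other pore and assembly genes gave 6 of 15 tested models higher and 2 lower (40.0% and 13.3%). mad1l1, a checkpoint protein held at the basket between divisions, was highest in rise at 7.73 ± 2.2035 and 25.9 ± 4.77 FPKM (1.64, limma adjusted p = 5.16e-05), and the largest fall was in tor1a (-1.07), an ATPase of the envelope lumen. ahctf1 (ELYS), which seeds pores on chromatin, had a model lower at 27.7 ± 4.33 and 13.9 ± 0.928 FPKM. A short model within the span of that one was higher, at 1.34 ± 1.12 and 5.58 ± 1.27 FPKM. The ahctf1 model on another scaffold was at 13.6 ± 2.40 and 9.92 ± 0.543 FPKM and was not called (-0.40, limma adjusted p = 0.0532). Other carriers gave 4 of 14 higher and 4 lower (28.6% each), near the shares of all gene models, with snupn, the importer of spliceosomal snRNPs, at 36.5 ± 6.70 and 8.59 ± 0.847 FPKM (-1.95, adjusted p = 2.76e-06). The largest rise among these carriers was in a bach1 model (1.39, limma adjusted p = 0.0244). The mRNA export list gave 7 of 30 higher and 10 lower (23.3% and 33.3%). Its largest fall was in mcm3ap (-2.26), which holds export factors at the pore, and its largest rise in thoc1 (1.26).

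Within a stage, single animals were compared by the coefficient of variation. Its median was 22.7% over 5 eggs (86 members) and 21.0% over 5 embryos (87 members), beside 29.8% and 25.5% over all gene models of the same filter. It includes counting error, since members held from 0 to 3060 recovered reads in a library of eggs. nup43 was among the steadiest, at 88.3 to 102 FPKM over the eggs. Of the 92 tested members, the technical libraries were all below all single embryos for 17 and all above for 7, where all gene models gave 8.92% and 8.62%.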

How the data were processed

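The authors sequenced rRNA-depleted RNA of single eggs and embryos as single-end reads of 42 bases, mapped them with gmap to version 7.1 of the JGI *X. laevis* assembly, and computed abundance with Cufflinks 2.1.1 per gene model. The deposited FPKM values were used as they stand. Positions are 1-based and come from the deposited gene model file. Merged stage profiles were not used.

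Stages were contrasted in limma 3.58.1 (R 4.3.3) on log2(FPKM + 1), for the 19373 gene models that averaged 1 FPKM or more across 10 libraries, and p-values were adjusted over all of them (Benjamini-Hochberg). Scripts were tested on simulated data. Intervals are 95% and cover these libraries only. Fits with the technical libraries treated them as replicates, so their p-values do not measure the spread between embryos. Reads per library were recovered from FPKM steps, assuming fragments of 200 ± 80 bases. Where models had 500 bases or more, 88.4% to 91.6% of values under 20 reads were whole within 0.1 reads. They entered no test. Members and lists were chosen with earlier results of these data known. The text names, per class, the model with the highest mean, the largest rise and the largest fall, then other copies, and further models chosen after their values were seen. Alternatives changed the pseudocount, filter, scaling, libraries, replicate block and trend.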

Additional observations from a re-analysis of the deposited data

Results flagged for a closer look

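For each tested member, the library farthest from the other 4 of its stage was compared with Dixon's 95% critical value of 0.71, over 184 groups of 5. Chance flags about 1 in 20 groups. It marked 12, of which 5 were in egg 3 and 3 in embryo 5. Egg 3 was high for nup98 copy 1 at 25.3 FPKM (others 8.81 to 11.96), for nup35 copy 1 at 171 FPKM (others 89.1 to 108), for nup35 copy 2 at 279 FPKM (others 134 to 173) and for sec13 copy 2 at 13.5 FPKM (others 6.46 to 7.60), and low for ipo5 copy 3 at 15.4 FPKM (others 27.6 to 32.5).

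Embryo 5 was high for kpna7 copy 2 at 79.4 FPKM (others 33.2 to 45.9) and low for tnpo3 copy 2 at 2.23 FPKM (others 4.31 to 5.04) and nup205 copy 2 at 1.88 FPKM (others 4.01 to 4.53). The remaining values were those of ranbp2 copy 2 in egg 2 at 6.17 FPKM (others 8.64 to 9.62), ipo4 in egg 4 at 32.1 FPKM (others 26.5 to 27.8), kpnb1 copy 3 in egg 4 at 0.00316 FPKM (others 3.94 to 4.70) and kpna4 copy 3 in embryo 2 at 16.8 FPKM (others 24.5 to 27.4). The models of kpnb1, kpna4 and sec13 share exon bases with a model on the opposite strand.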

How the results depend on the processing

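Leaving out each egg or embryo in turn gave 20 to 21 members higher and 32 to 36 lower, and all 20 rises and 32 of the 34 falls were kept in all 10 fits. The exceptions were tnpo2 copy 1 and ipo5 copy 4, the latter a ptpn4 model. Over all gene models these fits gave 5514 to 6253 higher and 4453 to 5070 lower. Among copy pairs of the members, 8 to 10 were unequal. Same-numbered eggs and embryos had correlations of -0.017 to 0.074. For replicates 3 and 5 these were above the correlation with any other number, and for 1, 2 and 4 they were not. Values this near 0 cannot settle whether replicate numbers pair the samples. With the number as a replicate block, 19 members were higher and 32 lower, and 8 copy pairs were unequal. All gene models then gave 30.9% higher and 24.1% lower. The unequal share of all copy pairs was not worked out for the block or the leave-one-out fits. Members that share no exon bases with another model, a choice made after seeing the data, gave 13 higher and 24 lower. Members with the same gene in both files, likewise chosen then, gave 14 and 32. Both choices count fewer models than the main fit, and the share over all gene models was not worked out for either.

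With technical libraries in place of embryos 10 members and 5435 of all gene models were higher, and ipo5 copy 3 turned to -0.0674. As TPM, 3 members and 1142 of all gene models were higher. The called differences that changed sign as TPM were nup54 copy 2 at -0.028, nup88 copy 2 at -0.24, rae1 copy 1 at -0.57, ranbp2 copy 1 at -0.55, ranbp2 copy 2 at -0.16, xpo1 copy 1 at -0.37, xpo1 copy 4 at -0.53, kpna3 copy 2 at -0.32, ipo5 copy 3 at -0.58, tnpo1 copy 1 at -0.57, tnpo1 copy 2 at -0.41 and tpr copy 1 at -0.71. The cause was not tested. TPM depends on the few models with the highest FPKM. Median-ratio scaling gave 22 higher and 32 lower, with 33.5% higher and 23.4% lower among all gene models. Depth limits members with few reads, such as the 9 left untested, where a lack of a call says little.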
